A study of Mus musculus with 17 samples.

Results

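The expression of 8 genes of the RAS-MAPK pathway was followed in blasts of TgSpi1 mice: the RAS genes Nras and Hras, the upstream phosphatase gene Ptpn11, the kinase gene Braf, and the genes of 4 negative regulators, Nf1, Rasa1, Cbl and Dusp6. They were picked by symbol as known RAS-MAPK oncogenes and regulators and are 8 of the 26029 genes in the count table of model 1 and 8 of the 24659 genes in that of model 2, and all 8 passed the filter on low counts in both. RNA-seq was made from erythroid blasts kept in culture with EPO, with 1 library per mouse. All mice carried the Spi1 transgene, which overexpresses the transcription factor SPI1 and blocks erythroid differentiation. Libraries are named by the ends of their titles, each a mouse number behind its stage. Model 1, on a mixed DBA2JxFVB/N background, compared preleukaemic blasts with Fanca (TgSpi1FA+/+, 4 libraries: preleukemic_138, preleukemic_445, preleukemic_451 and preleukemic_479), preleukaemic blasts without it (TgSpi1FA−/−, 3 libraries: preleukemic_40, preleukemic_77 and preleukemic_224) and leukaemic blasts without it (3 libraries: leukemic_26, leukemic_28 and leukemic_39). Its mice came from crosses in which the transgene was heterozygous. Preleukaemic cells depend on EPO for growth and leukaemic cells do not. In TgSpi1FA−/− mice both copies of Fanca, a gene of the Fanconi anaemia DNA repair pathway, are deleted. Model 2 held 4 preleukaemic (preleukemic_633, preleukemic_663, preleukemic_812 and preleukemic_837) and 3 leukaemic (leukemic_601, leukemic_606 and leukemic_921) TgSpi1FA+/+ mice on the DBA2J background, and there leukaemia emerged in animals given repeated blood transfusions. Libraries of model 1 were made from 400 ng of RNA fragmented for 8 min and those of model 2 from 300 ng fragmented for 2 min, so that strain, route to leukaemia and library protocol all change with the model. Ages were not given in the sources used here.

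RAS proteins are small GTPases that switch between an active GTP-bound and an inactive GDP-bound state. Exchange factors load them with GTP, and GTPase-activating proteins such as neurofibromin (Nf1) and p120 RasGAP (Rasa1) turn them off. Active RAS recruits RAF kinases, which start the MEK and ERK relay, and ERK in turn induces its own inhibitors, among them DUSP phosphatases and Sprouty proteins. In erythroid progenitors the pathway acts below the EPO receptor and KIT. By exome sequencing, which was not analysed here, the study looked for variants in blasts of both genotypes. For Kit and Nras it also searched preleukaemic TgSpi1FA+/+ blasts for variants of low frequency. RNA counts do not show the activity of any of these proteins.

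The tissue label was checked first. Of 11 erythroid markers, at least 10 had more than 3 counts in each group, with summed levels between 1968 and 10170 CPM (counts of a gene scaled to the TMM-adjusted total of its library). Myeloid markers summed to at most 2.00 CPM in each library of both models. In model 1, the leukaemic libraries had fewer erythroid transcripts (1968 to 4261 CPM, against 4700 to 5368 in TgSpi1FA−/− preleukaemic cells) and more transcripts of 5 megakaryocyte markers (173 to 273 against 45.5 to 59.8 CPM). The TgSpi1FA+/+ preleukaemic libraries of model 1 had 59.7 to 201 CPM of the megakaryocyte markers, overlapping the leukaemic ones. In model 2, erythroid transcripts were at 3082 to 5609 CPM in leukaemic and at 5155 to 10170 CPM in preleukaemic libraries. These shifts accompany the leukaemic comparisons below, and their part in them was not tested. In bulk RNA, fewer cells of a type and less RNA per cell cannot be told apart. Fanca was at 0.614 to 2.30 CPM in TgSpi1FA−/− and at 28.1 to 83.5 CPM in TgSpi1FA+/+ libraries of both models. The column names and source labels of preleukemic_40, preleukemic_77 and preleukemic_224 say leukaemic, whereas their titles and stage labels, used here, say preleukaemic. Each comparison with TgSpi1FA−/− preleukaemic cells rests on that choice. Spi1 was at 3.87 CPM in leukemic_39 and at least 102.7 CPM in each other library of both models. Between preleukemic_445 and preleukemic_479 the counts differed by less than in other pairs (chi-square over its degrees of freedom 9.18, against 126 to 411 within the groups of model 1). In the second table their value was 390.0, against 438 to 679 for the other pairs of TgSpi1FA+/+ mice there. Both were kept as separate mice, and the effect of summing them is given with the other alternatives.

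Nras and Hras differ in sequence even where their proteins are alike. The stretch around codon 61, a position well known for activating variants of RAS, is shown for both in the reference sequence (GENCODE M21, GRCm38), with that codon in capitals. It shows which bases separate these transcripts, and it is not a sequence of the blasts. For codons 58 to 64, all in exon 3, the sequences were:
Nras (chr3:103060261-103060281, plus strand): acagctggaCAAgaggagtac
Hras (chr7:141192540-141192560, minus strand): acagcaggtCAAgaagagtat
The coding sequences are 570 bases long in both genes and were identical at 428 positions (75.1%). The longest run of bases shared by both transcripts was 23, so that a longer perfectly matched read cannot come from both.

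Nras, on chromosome 3 from 103058285 to 103067914, was the only member whose change between leukaemic and preleukaemic TgSpi1FA−/− cells passed the test. Its level was 274 CPM in leukemic_26, 924 in leukemic_28 and 1072 in leukemic_39. In TgSpi1FA−/− preleukaemic cells it was 230.0 CPM in preleukemic_40, 195 in preleukemic_77 and 142 in preleukemic_224, and in TgSpi1FA+/+ preleukaemic cells 213, 294, 185 and 290.0 CPM in preleukemic_138, preleukemic_445, preleukemic_451 and preleukemic_479. Both high values came from leukemic_28 and leukemic_39, whereas leukemic_26 was above each TgSpi1FA−/− preleukaemic library but lay between the TgSpi1FA+/+ ones. The log2 fold change was 2.01 (SE 0.45, adjusted p = 0.0249), where 13.3% of the 13393 genes tested were called. A call required edgeR's adjusted p to be under 0.05 with a change of 1.5-fold or more. Group means were 757 ± 425 (SD, n = 3) and 189 ± 44.3 CPM (SD, n = 3), and the exact permutation test (two-sided) gave p = 0.1, as low as groups of 3 permit. DESeq2's Wald test called it too. The call was lost without single mice of either group. The adjusted p was 0.0651 without preleukemic_77, 0.0864 without preleukemic_224, 0.0564 without preleukemic_40, 0.0738 without leukemic_28 and 0.0635 without leukemic_39. It was 0.0605 when the fit held only the compared groups. The log2 fold change lay between 1.69 and 2.41 when each mouse of model 1 was left out in turn.

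In model 2, Nras was at 214, 155, 161 and 158 CPM in preleukemic_633, preleukemic_663, preleukemic_812 and preleukemic_837. The mice leukemic_601 and leukemic_606 had 272 and 304 CPM, above all 4, and leukemic_921 had 153 CPM, below all 4. This gave a log2 fold change of 0.50 (SE 0.26, adjusted p = 0.328). The difference between the Nras changes of both models was 1.497 (SE 0.53, adjusted p = 0.0978).

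**Figure D1:**
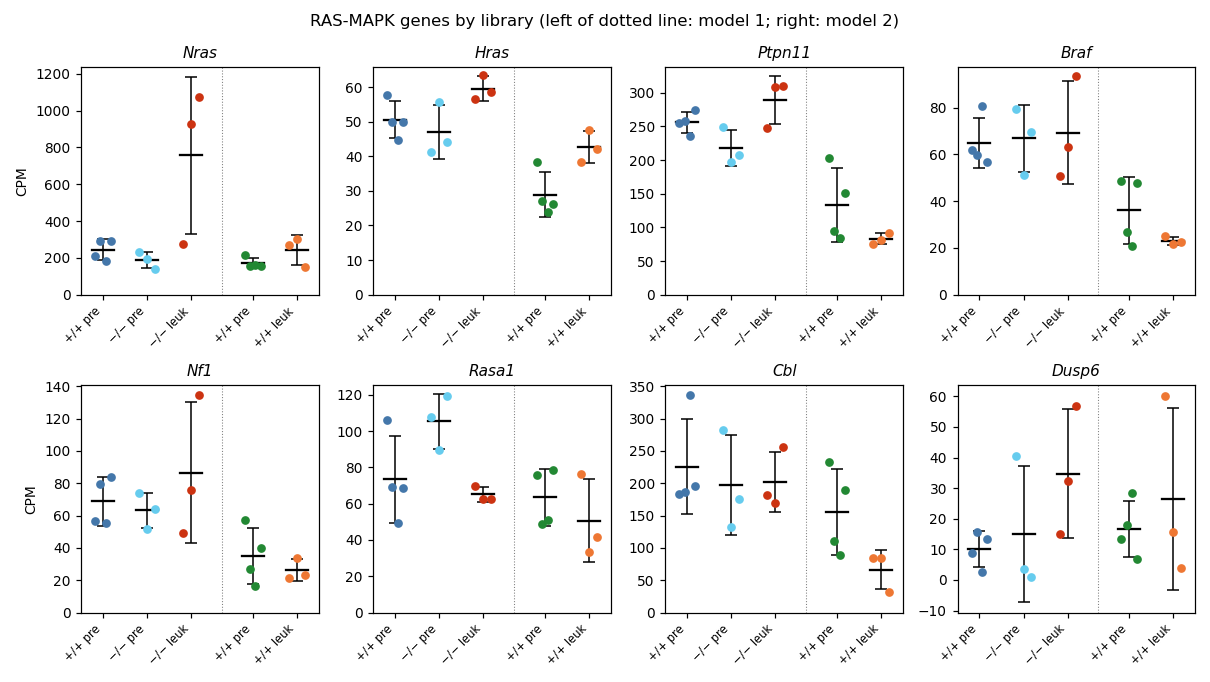
CPM (linear axis, from TMM-scaled libraries) of each of the 8 genes in the 5 groups, with 1 point per mouse, a bar at the mean and whiskers of 1 SD (n = 3 or 4). The dotted line separates model 1 from model 2, +/+ and −/− stand for TgSpi1FA+/+ and TgSpi1FA−/−, and the 2 highest Nras points, 924 and 1072 CPM, are leukemic_28 and leukemic_39.

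Hras, on chromosome 7 from 141189105 to 141194005, had a smaller log2 fold change than Nras in model 1. It was at 56.5, 63.6 and 58.5 CPM in leukemic_26, leukemic_28 and leukemic_39 and at 41.1, 55.8 and 44.1 CPM in preleukemic_40, preleukemic_77 and preleukemic_224. The ranges did not overlap, although preleukemic_77 came close to leukemic_26, and the log2 fold change was 0.34 (SE 0.16, adjusted p = 0.163). Of the 8 members, Nras and Hras were higher and Rasa1 was lower without overlap between the groups, and 38.7% of all tested genes had groups that did not overlap (19.3% higher and 19.5% lower). The TgSpi1FA+/+ preleukaemic libraries had 44.6 to 57.7 CPM. In model 2, Hras was at 38.4, 47.5 and 42.0 CPM in leukemic_601, leukemic_606 and leukemic_921 and at 38.4, 27.1, 23.9 and 26.2 CPM in preleukemic_633, preleukemic_663, preleukemic_812 and preleukemic_837. All leukaemic libraries of model 2 were above 3 of the 4 preleukaemic ones, and leukemic_601 lay level with preleukemic_633 (log2 fold change 0.56, SE 0.23, adjusted p = 0.238).

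Ptpn11 encodes SHP2, a tyrosine phosphatase that promotes RAS activation below receptors. It lies on chromosome 5 from 121130533 to 121191397. In model 1 it varied little, from 236 to 274 CPM in TgSpi1FA+/+ preleukaemic, from 198 to 248 in TgSpi1FA−/− preleukaemic and from 247 to 311 in leukaemic cells. The mouse leukemic_26 (247 CPM) and preleukemic_40 (248 CPM) touched, and the log2 fold change was 0.41 (SE 0.13, adjusted p = 0.0705). In model 2 the order was the other way round, with 75.6, 81.9 and 92.2 CPM in leukemic_601, leukemic_606 and leukemic_921 and 203, 95.1, 83.7 and 151 CPM in preleukemic_633, preleukemic_663, preleukemic_812 and preleukemic_837. Here preleukemic_633 and preleukemic_837 stood above the rest, and the log2 fold change was −0.68 (SE 0.32, adjusted p = 0.286). The difference between both changes was 1.07 (SE 0.34, adjusted p = 0.0729). DESeq2's Wald test called this difference (adjusted p = 0.0322), as did edgeR without preleukemic_812 (adjusted p = 0.0273).

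Braf, the gene of a RAF kinase, lies on chromosome 6 from 39603237 to 39725463, where the minus-strand gene overlaps Ndufb2 (up to 1205 counts in a library of model 1) on the other strand. It was at 50.9, 63.3 and 93.5 CPM in leukemic_26, leukemic_28 and leukemic_39 and at 79.4, 51.3 and 69.7 CPM in preleukemic_40, preleukemic_77 and preleukemic_224. These ranges overlapped widely (log2 fold change 0.06, SE 0.25, adjusted p = 0.909), and the sign turned without preleukemic_77 (−0.09) or leukemic_39 (−0.20). In model 2, the leukaemic libraries lay close together at 21.8 to 24.9 CPM. The mice preleukemic_633 and preleukemic_837 had 48.8 and 47.9 CPM, and preleukemic_663 and preleukemic_812 had 26.6 and 20.7 CPM, so that only the first pair was clearly above the leukaemic cells (log2 fold change −0.64, SE 0.35, adjusted p = 0.341).

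Nf1 encodes neurofibromin, a GTPase-activating protein that ends RAS signalling. It spans chromosome 11 from 79339693 to 79581612 and overlaps the minus-strand genes Omg, Evi2, Evi2a and Evi2b, of which the first 3 had at most 116 counts in a library of model 1. In leukaemic cells of model 1 it was at 49.3, 75.9 and 135 CPM in leukemic_26, leukemic_28 and leukemic_39, the widest spread of the 3 groups, and in preleukaemic cells it ranged from 51.9 to 73.8 CPM without and from 55.4 to 83.9 CPM with Fanca. Only leukemic_39 lay above all preleukaemic libraries. For Nf1 the log2 fold change was 0.46 (SE 0.34, adjusted p = 0.387). In model 2, whose table was scaled separately, it was at 57.1, 26.8, 16.3 and 39.7 CPM in preleukemic_633, preleukemic_663, preleukemic_812 and preleukemic_837 and at 21.2, 34.0 and 23.5 CPM in leukemic_601, leukemic_606 and leukemic_921 (log2 fold change −0.42, SE 0.43, adjusted p = 0.622).

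Rasa1, the gene of the other RAS GTPase-activating protein followed here, lies on chromosome 13 from 85214780 to 85289130 and overlaps Ccnh on the other strand, which had up to 3515 counts in a library of model 1. How strand entered the counting is not given in the sources used here. The leukaemic libraries were tightly grouped at 69.9, 62.8 and 62.8 CPM in leukemic_26, leukemic_28 and leukemic_39, below the 108, 89.4 and 119 CPM of preleukemic_40, preleukemic_77 and preleukemic_224. Rasa1 thus had a log2 fold change of −0.69 (SE 0.25, adjusted p = 0.0893). It was called by the fit of only the compared groups (adjusted p = 0.0482) and by the fit without preleukemic_138 (adjusted p = 0.0306). The mice preleukemic_138, preleukemic_445, preleukemic_451 and preleukemic_479 had 106, 69.2, 49.5 and 68.4 CPM, so that preleukemic_445 and preleukemic_479 lay within the leukaemic range, preleukemic_451 below it and preleukemic_138 above it. In model 2, Rasa1 was at 75.6, 48.9, 50.9 and 78.6 CPM in preleukaemic and at 76.6, 33.5 and 41.6 CPM in leukaemic cells, with overlap (log2 fold change −0.33, SE 0.33, adjusted p = 0.618).

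Cbl encodes a ubiquitin ligase that marks active receptors for degradation. It lies on chromosome 9 from 44142976 to 44234049. In model 1 the levels were 182, 169 and 256 CPM in leukemic_26, leukemic_28 and leukemic_39, 282, 132 and 176 CPM in preleukemic_40, preleukemic_77 and preleukemic_224, and 184, 186, 336 and 196 CPM in preleukemic_138, preleukemic_445, preleukemic_451 and preleukemic_479. High libraries occurred in each group, and the leukaemic change was 0.04 (log2, SE 0.33, adjusted p = 0.946), with the sign turning without preleukemic_77 (−0.17), preleukemic_224 (−0.02) or leukemic_39 (−0.14). In model 2, Cbl was at 84.1, 83.7 and 31.7 CPM in leukemic_601, leukemic_606 and leukemic_921, each below the 233, 111, 89.0 and 189.6 CPM of preleukemic_633, preleukemic_663, preleukemic_812 and preleukemic_837. It was the only member of model 2 whose groups did not overlap, which 20.1% of the 12970 genes tested there also showed, with 10.4% lower in leukaemic cells. The libraries leukemic_601 and leukemic_606 came close to preleukemic_812. The log2 fold change was −1.23 (SE 0.46, adjusted p = 0.205), and the exact permutation test gave p = 0.0571, as low as groups of 3 and 4 permit.

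Dusp6 encodes a cytoplasmic phosphatase that removes the activating phosphates of ERK and is itself induced by ERK. It lies on chromosome 10 from 99263231 to 99267489. Of the 8 members it varied the most between mice of a group. The mice leukemic_26, leukemic_28 and leukemic_39 had 14.9, 32.4 and 56.9 CPM, and preleukemic_40, preleukemic_77 and preleukemic_224 had 40.6, 3.45 and 0.818 CPM. The mouse preleukemic_40 alone overlapped the leukaemic range (log2 fold change 1.22, SE 1.19, adjusted p = 0.519), and without it the value was 4.02 (adjusted p = 0.0581). The TgSpi1FA+/+ preleukaemic libraries had 2.63 to 15.6 CPM. In model 2 the spread was as wide, with 60.2, 15.8 and 3.77 CPM in leukemic_601, leukemic_606 and leukemic_921 and 6.94 to 28.4 CPM in preleukaemic cells. In model 2 its log2 fold change was 0.67 (SE 0.84, adjusted p = 0.688), and it was −0.77 without leukemic_601.

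The 8 members did not move as 1 group. In the leukaemic comparison of model 1, 7 of them had a log2 fold change above 0, as did 49.9% of all genes, with a median of 0.38 beside −0.00 over all genes tested. Nras, Ptpn11 and Rasa1 had an unadjusted p under 0.05, as did 32.4% of all genes, and DESeq2, which called 19.8% of its genes, called 1 member, Nras. In that of model 2, 3 were above 0 (48.4% of all genes were) and the median was −0.37 beside −0.03 over all genes. No member was called in model 2 with edgeR's quasi-likelihood test or with DESeq2's Wald test, which called 3.45% of all genes. Among the 12970 genes tested there, the share called by edgeR was 0%. Hras and Cbl had an unadjusted p under 0.05, as did 19.9% of all genes. The test of the difference between both leukaemic changes also called none (4.61% of 14597 genes were called), and 6 of the 8 differences were above 0 (51.9% of all genes were), with a median of 0.76 beside 0.05 over all genes. Ptpn11, Nras and Cbl had an unadjusted p under 0.05 there, as did 25.8% of all genes. DESeq2, which called 13.5% of all genes, called 1 member, Ptpn11. Nras was called without leukemic_26 (1.90, adjusted p = 0.0197). The values of this test carry the differences in strain and library protocol, which cannot be told apart from that between the models.

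**Figure D2:**
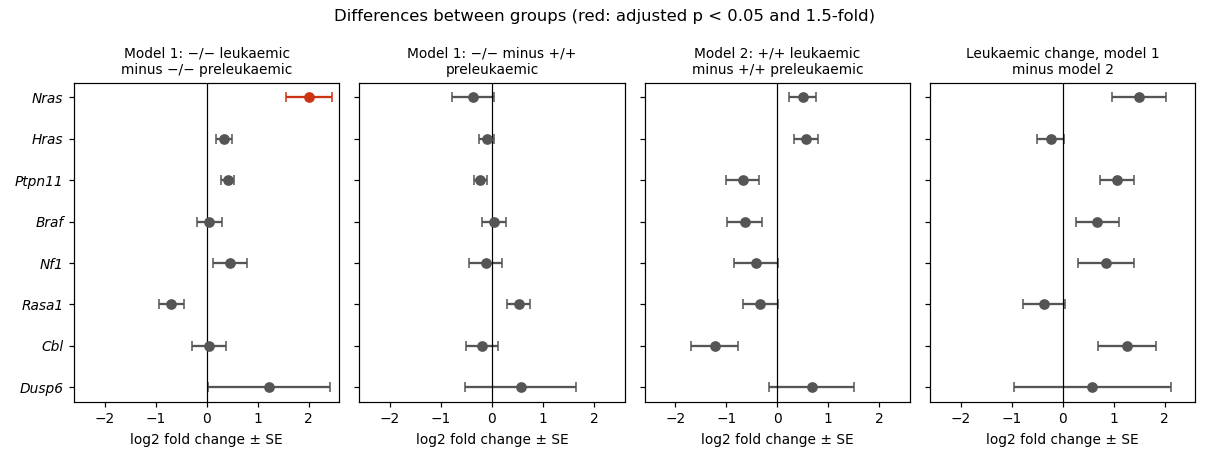
Log2 fold change of each gene with its SE (edgeR's quasi-likelihood fit) in 4 comparisons, from left to right the leukaemic change of model 1, the effect of Fanca loss in preleukaemic cells, the leukaemic change of model 2 and the difference between both leukaemic changes. The Nras value of 2.01 in the first panel is the only called one, and Ptpn11, Braf, Nf1 and Cbl lie above 0 in the first panel and below 0 in the third.

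Loss of Fanca in preleukaemic cells was not accompanied by a called change of any member. The adjusted p was at least 0.571, and 0 of the 8 members had groups that did not overlap (8.54% of the 13393 genes did, and 0.00747% were called). DESeq2 called none of the 8 either and 1.87% of all genes. The values with the most distance from 0 were those of Dusp6 (0.56, SE 1.09), Rasa1 (0.52, SE 0.23, unadjusted p = 0.0469, the only one under 0.05, where 8.65% of all genes were) and Nras (−0.38, SE 0.41). Dusp6 turned to −2.25 without preleukemic_40. This comparison shares the TgSpi1FA−/− preleukaemic libraries with the leukaemic comparison of model 1, so that a low or high library in that group enters both, with opposite signs.

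Levels were compared between genes as CPM per kb of exon. Nras had the highest level of the 8 in each of the 5 groups, from 32.3 ± 5.28 (SD, n = 4) in preleukaemic cells of model 2 to 142 ± 79.7 CPM per kb (SD, n = 3) in leukaemic cells of model 1, each table being scaled separately. In model 1, Ptpn11 came next, with 29.1 to 38.6 CPM per kb as group means, followed by Cbl with 15.9 to 18.3. In both preleukaemic groups of model 1 the ranges of Nras and Ptpn11 overlapped (26.6 to 43.1 and 26.4 to 33.2 CPM per kb in TgSpi1FA−/− cells), whereas in leukaemic cells each Nras library was above each Ptpn11 library. Hras, Rasa1 and Cbl were neighbours whose ranges overlapped in TgSpi1FA−/− preleukaemic cells, and Nf1 and Braf were at 3.99 to 5.46 CPM per kb, without separation from each other in any group of model 1. Dusp6 ran from the lowest place in TgSpi1FA+/+ preleukaemic cells (3.23 ± 1.83, SD, n = 4) to the fifth in leukaemic cells (11.1 ± 6.74, SD, n = 3). In leukaemic cells of model 2, Hras (11.4 ± 1.23, SD, n = 3) and Ptpn11 (11.1 ± 1.13, SD, n = 3) followed Nras without separation, and Cbl was down to the sixth place at 5.39 ± 2.44 CPM per kb (SD, n = 3).

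The authors also deposited a second table for leukemic_26, leukemic_28, leukemic_39 and the 4 TgSpi1FA+/+ preleukaemic mice of model 1, and what sets it apart from the first is not stated. In it, Nras was at 182, 903 and 822 CPM in leukemic_26, leukemic_28 and leukemic_39 and at 148 to 213 CPM in the TgSpi1FA+/+ preleukaemic mice. The same 2 mice were high, and leukemic_26 lay within the preleukaemic range. The log2 fold change was 1.88 (SE 0.49, adjusted p = 0.110), and it was called without leukemic_26 (2.32, adjusted p = 0.00851) and by DESeq2's Wald test (adjusted p = 0.0195). Dusp6 was at 9.66, 20.6 and 45.9 CPM in leukaemic cells and at 5.05, 0.0910, 1.30 and 1.31 CPM in preleukemic_138, preleukemic_445, preleukemic_451 and preleukemic_479. It was the only member whose groups did not overlap, which 18.6% of the 16799 genes did, 10.5% being higher (log2 fold change 3.71, SE 1.12, adjusted p = 0.149, and 0.00773 with DESeq2). In the first table, preleukemic_138, preleukemic_445, preleukemic_451 and preleukemic_479 were at 8.83, 15.6, 2.63 and 13.4 CPM of Dusp6. There preleukemic_445 lay above leukemic_26 (14.9 CPM), so that these groups overlapped. Why both tables differ for the same mice was not tested. With edgeR none of the 8 members and 1.59% of all genes were called, Nras and Dusp6 had an unadjusted p under 0.05 as did 18.6% of all genes, and DESeq2, which called 9.79% of all genes, called both. Fold changes of the other 6 members were between −0.31 and 0.50 on the log2 scale.

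The genes around Nras on chromosome 3 were then described, library by library, as the log2 CPM (prior count of 2) of each gene minus its mean in the preleukaemic reference group (genes with a mean of at least 10 CPM). Without that limit on CPM, 28 of 34 tested genes starting within 2 Mb of Nras had a leukaemic log2 fold change above 0 in model 1 (49.9% of all genes had). Their median was 1.36, and 13 were called higher and 3 lower, where 6.82% and 6.49% of all genes were. Gm43062, Bcl2l15, Ppm1j, Rhoc and Cttnbp2nl, among those called higher, had at most 1.06 CPM in each preleukaemic library. Of these, Bcl2l15, Rhoc and Cttnbp2nl passed the filter on low counts only with the leukaemic libraries, as did Ampd1, which was not called. The counts above 0 and called higher, and the median, are in part built in by this. Ppm1j, Rhoc and Cttnbp2nl also lie beyond Lrig2, named below. Around the other members, the medians over the same distance lay between −0.16 (Ptpn11) and 0.33 (Braf). In leukemic_28 and leukemic_39, but not in leukemic_26, raised values ran from Mrpl9, 8.61 Mb before the start of Nras, to Lrig2, 1.34 Mb after it, a span whose ends were chosen after the values had been seen. Over its 75 genes other than Nras, the median was 1.42 in leukemic_28 and 1.51 in leukemic_39, with 69 of the 75 above 0 in both, and it was 0.32 in leukemic_26. Beyond Lrig2 (1.60 in leukemic_28, 1.80 in leukemic_39), the next tested gene, Slc16a1, was at 0.04 and −0.03, although Mov10, which follows it, was at 1.94 and 2.43, with 1.99 in leukemic_26. Medians were 0.39 and 0.38 over 79 genes in front of the span, out to 20 Mb, and −0.14 and −0.18 over 57 genes behind it. On the other chromosomes the medians of leukemic_28 and leukemic_39 were −0.07 and −0.11.

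Not all genes of the span were raised in those 2 mice. Nr1h5 and Sycp1, which lie 119 and 240 kb ahead of Nras, were called lower, as was Gm42658 outside the span. Nr1h5 was at 15.9 to 36.7 CPM in TgSpi1FA−/− preleukaemic cells and at 0, 0.0255 and 0 CPM in leukemic_26, leukemic_28 and leukemic_39, but it was also at 0 CPM in preleukemic_138 and preleukemic_451. Sycp1 had 283 CPM in preleukemic_224, under 1 CPM in preleukemic_40 and preleukemic_77, and at most 0.0509 CPM in leukaemic cells. Nras itself was at 0.56, 2.32 and 2.54 in leukemic_26, leukemic_28 and leukemic_39, above the median of its neighbours in each.

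Within the span, a shorter stretch, whose ends were also chosen after the values had been seen, was raised in all 3 leukaemic mice. From Setdb1 to Bola1, 7.73 to 6.86 Mb before Nras, the median of 15 genes was 1.59 in leukemic_26, 1.69 in leukemic_28 and 1.70 in leukemic_39, and each of the 15 was above 0 in each mouse. It holds Mcl1, a survival gene of the BCL2 family, at 1.59, 1.44 and 1.15. Over the remaining 60 genes of the span, leukemic_26 was at 0.05, against 1.29 in leukemic_28 and 1.38 in leukemic_39. Among these 60, H2bc21, 6.84 Mb before Nras, was raised in all 3 mice (1.85 in leukemic_26, 2.29 in leukemic_28 and 3.80 in leukemic_39). In leukemic_26 the median was thus raised in the short stretch, and near 0 over the part that holds Nras. In the second table, with TgSpi1FA+/+ preleukaemic cells as the reference, the median of 20 genes of the short stretch was 1.56, 1.65 and 1.57 in leukemic_26, leukemic_28 and leukemic_39, and that of the other 61 genes was −0.02, 1.48 and 1.24. In model 2, leukemic_601 and leukemic_606 had medians of 0.37 and 0.70 in the span, 0.37 and 0.72 in front of it and 0.60 and 1.01 behind it, whereas leukemic_921 had −0.18, −0.29 and 0.11 there. In model 1, preleukemic_445 and preleukemic_479 had 0.50 and 0.39 in the span with 0.46 and 0.39 behind it. Gene copy number was not analysed here.

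**Figure D3:**
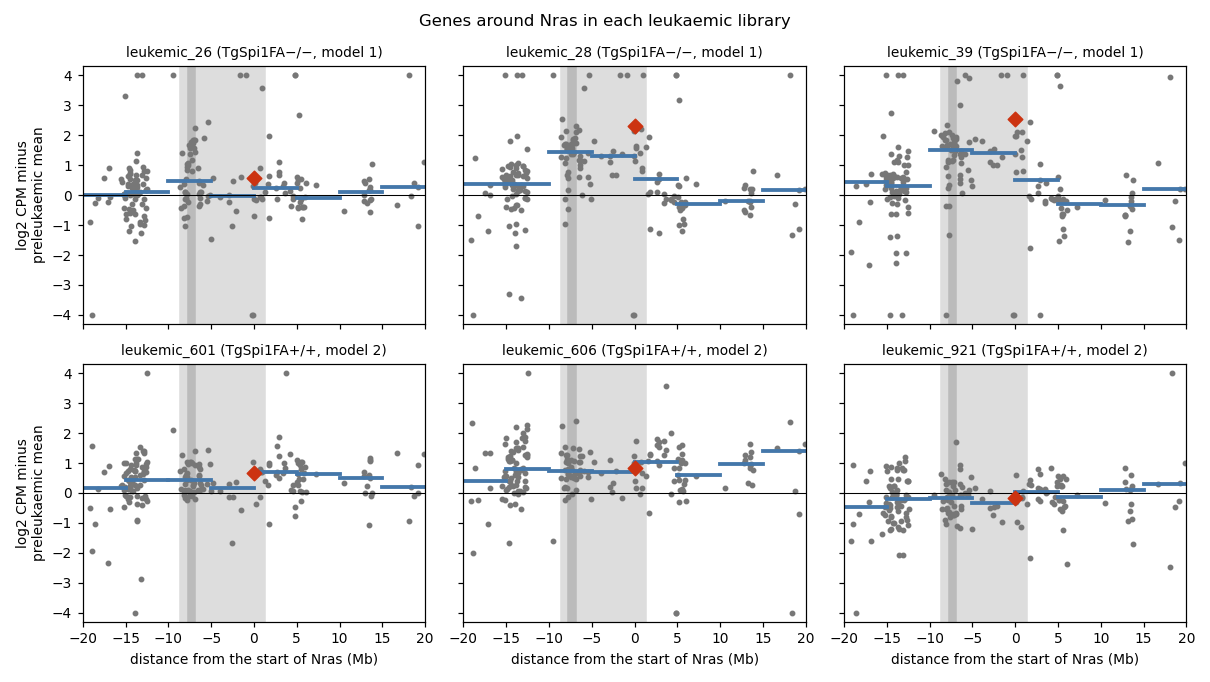
Log2 CPM minus the preleukaemic mean (y axis, values beyond 4 or −4 drawn at the edge) against the distance from the start of Nras (x axis, Mb) in the 6 leukaemic libraries, with a grey dot per gene, a blue line at the median of each 5 Mb bin and Nras as a red diamond. Light grey marks Mrpl9 to Lrig2 and dark grey Setdb1 to Bola1, and the median over both shades together is 1.42 in leukemic_28 and 1.51 in leukemic_39, whereas leukemic_26 has a median of 1.59 in the dark stretch and 0.05 in the light one. The ends of both were chosen after the values had been seen.

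The pathway beyond the 8 members was described with a list of 69 genes that includes them, of which 58 were tested in the leukaemic comparison of model 1. There, 15 were called higher and 2 lower, where 6.82% and 6.49% of all tested genes were, 32 had an unadjusted p under 0.05 (32.4% of all genes had) and 39 were above 0 (49.9% of all genes were), with a median log2 fold change of 0.38. Of those called higher, Dusp4, Dusp9, Mras and Rasal1 passed the filter on low counts only with the leukaemic libraries. Their direction was thus set in advance. DESeq2 called 22 of the 61 genes of the list to which it gave an adjusted p, and 19.8% of all genes. The count changed with single mice, and so did that over all genes (1782 of 13393 in the main fit). The list had 6 calls without preleukemic_77 (822 of 14125 over all genes), 5 without preleukemic_224 (418 of 14091) and 10 without preleukemic_40 (833 of 14202). It had 7 without leukemic_28 (414 of 13772), 9 without leukemic_39 (711 of 13778) and 21 without leukemic_26 (2319 of 14031). Spry4, Rasgrp2 and Dusp7 were among the genes called whichever mouse was left out.

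ERK phosphatases and Sprouty inhibitors were the group with the most calls. Of 9 tested, all were above 0 (49.9% of all genes were) and 7 were called higher (6.82% of all genes were). The median log2 fold change was 2.84. Dusp9 and Dusp4 had at most 6 and 26 counts in preleukaemic libraries of model 1 and passed the filter through the leukaemic ones. The counts above 0 and called, and the median, are in part built in by this. Spry4, a Sprouty inhibitor of RAS signalling, was at 43.3, 55.1 and 91.7 CPM in leukemic_26, leukemic_28 and leukemic_39 and at 1.26, 0 and 0.117 CPM in preleukemic_40, preleukemic_77 and preleukemic_224. All 3 leukaemic mice were high, including leukemic_26, and the TgSpi1FA+/+ preleukaemic mice had 0.729 to 1.53 CPM (log2 fold change 7.11, SE 1.26, adjusted p = 0.0127). Dusp2, a nuclear phosphatase, had 12.1, 18.03 and 48.2 CPM in leukaemic and 0.776, 1.12 and 2.45 CPM in TgSpi1FA−/− preleukaemic cells, again higher without overlap (4.17, adjusted p = 0.0164), as were 19.3% of all genes. Dusp4, its nuclear relative, was raised in leukemic_28 and leukemic_39 (43.9 and 136 CPM), whereas leukemic_26 (0.602 CPM) was below preleukemic_40 (0.841 CPM, log2 fold change 7.55, adjusted p = 0.0330). Dusp9 had no count in any TgSpi1FA−/− preleukaemic library and 1.51, 7.49 and 66.5 CPM in leukemic_26, leukemic_28 and leukemic_39, a mean at least 267-fold higher than a floor of 3 counts per library allows, and at least 47.7-fold without leukemic_39.

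The cytoplasmic phosphatase Dusp7, Dusp1 and Spry1 changed by less. Dusp7 was at 18.5 to 23.3 CPM in leukaemic and at 8.50 to 9.64 CPM in TgSpi1FA−/− preleukaemic cells (1.17, adjusted p = 0.0127), and the TgSpi1FA+/+ preleukaemic cells had 15.1 to 19.0 CPM, close to the leukaemic ones. Dusp1, an immediate early phosphatase, was at 6.39 to 14.1 against 0.847 to 3.82 CPM (2.07, adjusted p = 0.0452), with 3.04 to 5.74 CPM in TgSpi1FA+/+ preleukaemic cells. Spry1 was at 7.87 to 14.2 against 0.672 to 2.07 CPM (2.84, adjusted p = 0.0206). Spry2, another Sprouty gene, was too low to be tested, with 83 counts in leukemic_28, 2 in leukemic_26 and 0 in all other libraries of model 1. Single mice undid 5 of these calls. That of Dusp1 was lost without any mouse of model 1 other than preleukemic_451 and preleukemic_40 (adjusted p up to 0.117), and that of Dusp4 without any other than preleukemic_138, preleukemic_451 and leukemic_26 (up to 0.109). Those of the others were lost for Dusp9 without preleukemic_77, preleukemic_224, preleukemic_40 or leukemic_28 (up to 0.0662), for Spry1 without preleukemic_224, preleukemic_40, leukemic_28 or leukemic_39 (up to 0.0691) and for Dusp2 without preleukemic_77 or preleukemic_40 (up to 0.0529).

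**Figure D4:**
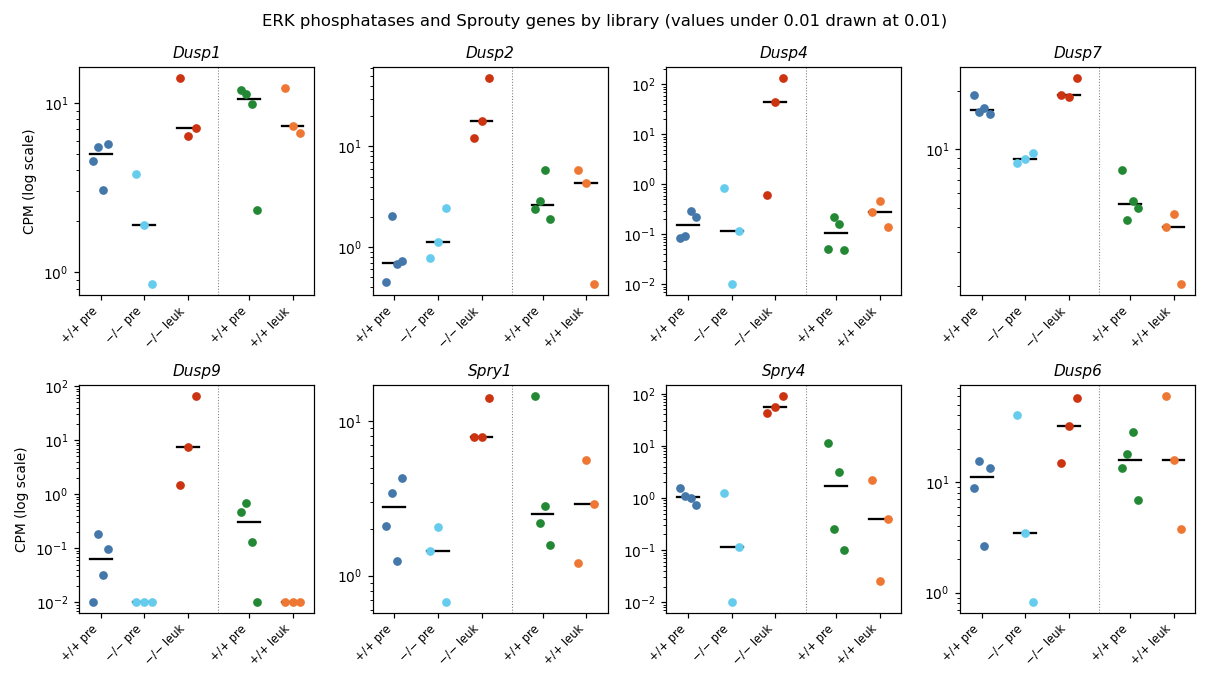
CPM on a log axis (values under 0.01 drawn at 0.01) of 7 ERK phosphatase and Sprouty genes and of Dusp6 in the 5 groups, with 1 point per mouse and a bar at the group median. For Spry4 the 3 leukaemic mice of model 1 sit between 43.3 and 91.7 CPM, above all other libraries, whereas for Dusp4 only 2 of the 3 do.

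Genes that ERK induces moved in both directions. Of 9 tested, none was called in edgeR's quasi-likelihood test, and 6 were above 0 (49.9% of all genes were). The median log2 fold change was 1.33 beside −0.00 over all genes. An unadjusted p under 0.05 was found for 3 (32.4% of all genes had one), Phlda1 (1.64, SE 0.54, adjusted p = 0.0715), Etv4 and Etv5, all above 0. Etv4, a transcription factor gene often read as a target of ERK, was at 5.996, 33.7 and 38.7 CPM in leukemic_26, leukemic_28 and leukemic_39 and at 2.30, 3.54 and 0.146 CPM in preleukemic_40, preleukemic_77 and preleukemic_224, higher without overlap (3.72, SE 1.28, adjusted p = 0.0807), as were 19.3% of all genes. Its relative Etv5 was high in leukemic_28 and leukemic_39 (35.3 and 78.8 CPM) but at 10.9 CPM in leukemic_26, below the 11.6 to 22.7 CPM of preleukaemic cells (1.35, adjusted p = 0.152). Egr1, an immediate early gene, was at 132, 165 and 76.0 CPM in leukaemic and at 75.3 to 379.7 CPM in preleukaemic cells (−0.81, adjusted p = 0.391).

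Among RAS GTPases, Mras, a RAS relative that acts with SHOC2 on RAF, had no count in TgSpi1FA−/− preleukaemic cells and 153, 55 and 8 counts in leukemic_26, leukemic_28 and leukemic_39, at least 20.5-fold higher as a mean and at least 8.49-fold without leukemic_26. Among upstream genes, 2 of 9 tested were called, both higher and both of the RASGRP family, where 6.82% of all genes were called higher. Rasgrp2, which mainly activates the RAP branch of small GTPases, was at 41.4, 189 and 454 CPM in leukemic_26, leukemic_28 and leukemic_39 and at 0.453, 0.0984 and 0.146 CPM in preleukemic_40, preleukemic_77 and preleukemic_224 (log2 fold change 9.93, SE 1.42, adjusted p = 0.00668). Its TgSpi1FA+/+ preleukaemic levels, 2.31 to 31.9 CPM, lay between. Rasgrp4, a RAS exchange factor known from mast cells, was at 9.20 to 15.9 against 0.380 to 1.49 CPM (3.89, adjusted p = 0.0202), and again the TgSpi1FA+/+ preleukaemic cells were not low (4.85 to 27.6 CPM). Mast cell markers summed to at most 15.9 CPM in each library of model 1. The Rasgrp4 call was lost without preleukemic_77, preleukemic_224 or leukemic_28 (adjusted p up to 0.0749) and that of Mras without preleukemic_224 or leukemic_28 (up to 0.0589).

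Of 14 GTPase-activating proteins and their partners tested, 3 were called, all higher, where 6.82% of all genes were, and the median was 0.08. Among the 3, the direction of Rasal1 was set in advance by the filter on low counts. Spred1, which brings neurofibromin to the membrane, was at 224.1, 289.5 and 341 CPM in leukaemic and at 99.7 to 145 CPM in TgSpi1FA−/− preleukaemic cells (1.23, adjusted p = 0.0346). Spred3 was at 3.29, 8.89 and 19.1 against 0.259 to 0.526 CPM (4.68, adjusted p = 0.0161). Rasal1 had no count in TgSpi1FA−/− preleukaemic cells and 1.09 to 2.27 CPM in leukaemic cells, at least 15.7-fold higher as a mean and at least 11.6-fold without leukemic_28. The value farthest below 0 in this group was that of Rasal3 (−3.001, adjusted p = 0.307), which was not called and for which preleukemic_224, at 0 CPM, stood apart from preleukemic_40 and preleukemic_77 at 108 and 65.8 CPM. The calls were lost without any mouse of model 1 other than preleukemic_138, preleukemic_451 and leukemic_26 for Spred1 (adjusted p up to 0.0995), without preleukemic_77, preleukemic_224 or preleukemic_40 for Spred3 (up to 0.0579) and without preleukemic_77, preleukemic_224, preleukemic_40, leukemic_28 or leukemic_39 for Rasal1 (up to 0.0817). Cblb, the relative of Cbl, was not called (−0.40, adjusted p = 0.314).

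In the kinase cascade, the RAF kinase gene Araf was lower and Map2k1 was higher. Araf was at 69.7, 58.6 and 57.0 CPM in leukemic_26, leukemic_28 and leukemic_39 and at 97.4, 92.7 and 91.6 CPM in preleukemic_40, preleukemic_77 and preleukemic_224 (log2 fold change −0.60, SE 0.13, adjusted p = 0.0247). All its leukaemic libraries were also below those of TgSpi1FA+/+ preleukaemic cells, which had at least 73.5 CPM. Map2k1, the gene of MEK1, was at 92.5, 69.5 and 87.7 against 63.1, 44.3 and 48.0 CPM (0.69, adjusted p = 0.0295). The ERK gene Mapk3 (−0.33, adjusted p = 0.556) and the scaffold gene Ksr1 (1.01, adjusted p = 0.115) were not called. The Araf call was lost without any mouse of model 1 other than preleukemic_138, preleukemic_445, preleukemic_479 and leukemic_26 (adjusted p up to 0.0963) and that of Map2k1 without preleukemic_77, preleukemic_224, leukemic_26 or leukemic_39 (up to 0.0957). Araf lay close to the 1.5-fold limit, and its call was lost under 5 of 7 processing alternatives, in 3 of them at a fold of 1.47 to 1.498 and in 2 at an adjusted p of 0.0517 and 0.0584. The Map2k1 call was lost in 2 of 7.

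**Figure D5:**
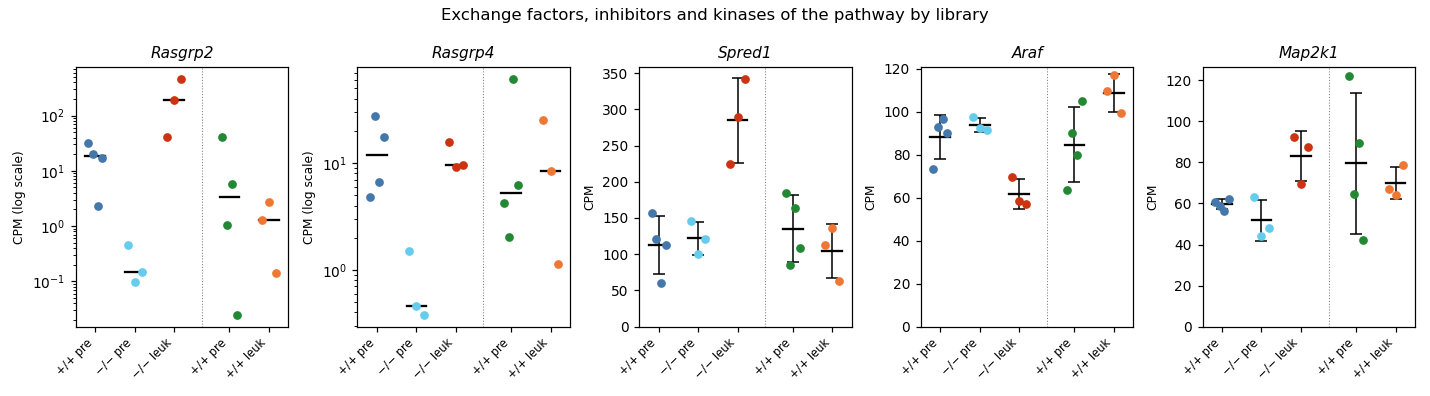
CPM of 5 further pathway genes in the 5 groups with 1 point per mouse. Bars are means with whiskers of 1 SD on the linear axes, and medians on the log axes of Rasgrp2 and Rasgrp4. Araf is lower in the 3 leukaemic mice of model 1 than in its other mice, and Rasgrp2 is at most 0.453 CPM in the TgSpi1FA−/− preleukaemic mice.

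In model 2 the same list gave no call in edgeR. Of 53 genes tested, 14 were above 0 (48.4% of all genes were), with a median of −0.33, and 9 had an unadjusted p under 0.05 (19.9% of all genes had). DESeq2 called 1 of 57 genes with an adjusted p, the adaptor gene Gab2, named after its value was seen, and 3.45% of all genes. Spry4 was at 2.20, 0.0254 and 0.397 CPM in leukemic_601, leukemic_606 and leukemic_921 and at 11.5, 0.250, 3.22 and 0.0988 CPM in preleukemic_633, preleukemic_663, preleukemic_812 and preleukemic_837, with overlap (−2.10, adjusted p = 0.544). Rasgrp2 (−3.10, adjusted p = 0.407), Rasal3 (−1.76, adjusted p = 0.408), Rras (−0.79, adjusted p = 0.402) and Map2k2 (−0.65, adjusted p = 0.162), the most distant from 0 in their groups, were not called. Sos1, the gene of the main RAS exchange factor, was lower without overlap (−1.17, adjusted p = 0.162), as were 10.4% of all genes. Ccnd1 (−6.10, adjusted p = 0.286) rested on preleukemic_663, which had 33.1 CPM where the other libraries of model 2 had at most 0.642. The values were 1.70 for Etv4, −0.27 for Etv5, −0.34 for Egr1, −0.19 for Map2k1 and −0.16 for Mapk3, none of them called. Mast cell markers reached 63.7 to 72.0 CPM in the leukaemic libraries of model 2, against 2.57 to 55.8 CPM in preleukaemic ones, and their part in these values was not tested.

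The test of the difference between both leukaemic changes called 6 of 62 genes. Spry4 (9.21, adjusted p = 0.0456), Rasgrp2 (12.99, adjusted p = 0.0292), Dusp7 (1.82, adjusted p = 0.0378), Dusp9 (adjusted p = 0.0285) and Sos1 (1.38, adjusted p = 0.0453) had a higher change in model 1, and Araf a lower one (−0.97, adjusted p = 0.0380), where 2.76% and 1.85% of all genes were called. Unadjusted p-values were under 0.05 for 29 genes (25.8% of all genes), and DESeq2 called 17 of 61 with an adjusted p (13.5% of all genes). Sos1 was at 110.3 to 119 CPM in leukaemic and 79.7 to 111 CPM in TgSpi1FA−/− preleukaemic cells of model 1, and at 29.4 to 40.3 and 49.2 to 116 CPM in leukaemic and preleukaemic cells of model 2. Araf was at 57.0 to 69.7 against 91.6 to 97.4 CPM in model 1 and at 99.3 to 117 against 63.8 to 105 CPM in model 2. The 10 ERK phosphatase and Sprouty genes tested were all above 0 (51.9% of all genes were), with a median of 4.16 beside 0.05 over all genes. Of these, Dusp9 and Spry2 had no count in TgSpi1FA−/− preleukaemic libraries or in leukaemic libraries of model 2. These groups enter the difference with a minus sign, so that the direction of both genes was set in advance. None of the 6 calls held whichever mouse was left out. The list had 0 calls without preleukemic_77, preleukemic_224, preleukemic_40, leukemic_28, leukemic_39, leukemic_601, leukemic_606 or leukemic_921, 2 without preleukemic_445 or preleukemic_479, 3 without preleukemic_633, 4 without preleukemic_451, 10 without preleukemic_812 and 12 without leukemic_26. In the fits with 0 list calls, calls over all genes ran from 1 of 15068 (without leukemic_28) to 115 of 15251 (without leukemic_606). They were 191 of 14523 without preleukemic_445, 294 of 14525 without preleukemic_479 and 248 of 14467 without preleukemic_633. Without preleukemic_451, preleukemic_812 and leukemic_26 they were 515 of 14514, 1359 of 14484 and 1050 of 15250. Mras (10.09, adjusted p = 0.0594), Rasal1 (7.36, adjusted p = 0.147), Ccnd1 (12.60, adjusted p = 0.120) and Ksr1 (1.08, adjusted p = 0.356) had the values most distant from 0 in their groups and were not called. Spry2 was at 17.54 (adjusted p = 0.0997). The fits of Spry2, Mras, Rasal1, Dusp9 and Ccnd1 involve groups without counts and depend on the prior count. Further differences that were not called were 0.86 for Map2k1, −0.18 for Mapk3, 2.01 for Etv4, 1.62 for Etv5 and −0.46 for Egr1.

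For the preleukaemic comparison of TgSpi1FA−/− with TgSpi1FA+/+ cells, 0 of 58 genes of the list were called by edgeR, 8 had an unadjusted p under 0.05 (8.65% of all genes had) and DESeq2 called 3 of the 60 to which it gave an adjusted p (1.87% of all genes). Rasgrp2 (−6.24, SE 1.24, adjusted p = 0.410) and Rasgrp4 (−4.18, SE 0.81, adjusted p = 0.378) were lower without overlap, as was Dusp7 (−0.87, adjusted p = 0.512), where 8.54% of all genes had groups that did not overlap. None of the 3 was called by edgeR, whereas DESeq2 called all 3. Ksr1 (−0.84, adjusted p = 0.580), Cblb (0.48, adjusted p = 0.608), Etv4 (1.94, adjusted p = 0.655), Spry4 (−1.24, adjusted p = 0.767) and Egr1 (1.16, adjusted p = 0.6004) were not called by either. Values of −0.20 for Map2k1, 0.16 for Mapk3 and 0.29 for Etv5 lay nearer to 0. Mras had 3 to 10 counts in TgSpi1FA+/+ libraries and none in TgSpi1FA−/− ones, at least 2.05-fold lower in the latter as a mean and at least 1.61-fold without preleukemic_479. Rasal1 and Dusp9 had at most 14 counts in any of these libraries, and no fold is given.

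In the second table, 4 of 61 genes of the list were called, all higher in leukaemic than in TgSpi1FA+/+ preleukaemic cells, where 1.35% of all genes were. An unadjusted p under 0.05 was found for 21 (18.6% of all genes), and DESeq2 called 14 of 64 with an adjusted p (9.79% of all genes). Spry4 was at 16.9, 46.8 and 79.5 CPM in leukemic_26, leukemic_28 and leukemic_39 and at 0 to 0.363 CPM in preleukaemic cells (7.97, adjusted p = 0.0338). Rasgrp2 was at 74.3, 274 and 548 CPM against 0.148 to 5.11 CPM (6.997, adjusted p = 0.0380), and Etv4 at 1.02, 26.9 and 35.2 against 0.0683 to 0.247 CPM (7.23, adjusted p = 0.0314). Dusp9 was at least 354-fold higher, and at least 102-fold without leukemic_39 (adjusted p = 0.0305). Dusp9 and Spry4 had at most 3 and 39 counts in preleukaemic libraries there and passed the filter on low counts only with the leukaemic ones. The direction of both was thus set in advance. All 4 calls were lost without leukemic_28 or leukemic_39, and the list had 0 calls then, as it did without preleukemic_445, preleukemic_451 or preleukemic_479. It had 2 without preleukemic_138 and 12 without leukemic_26. Calls over all genes were 5 of 17440 without leukemic_28, 60 of 17842 without leukemic_39 and 38 of 16742 without preleukemic_445. They were 111 of 16575 without preleukemic_451 and 25 of 16393 without preleukemic_479. Without preleukemic_138 and leukemic_26 they were 328 of 16508 and 864 of 17521. Dusp1 (−1.36), Dusp7 (0.52) and Spry1 (0.17) were not called there, against TgSpi1FA+/+ cells as the reference. Epha2 (8.50, adjusted p = 0.104), Rasal1 (3.72, adjusted p = 0.0879) and Mras (3.36, adjusted p = 0.254) were not called and were the most distant from 0 in their groups. Map2k1 was at 0.13, Mapk3 at −0.52, Etv5 at 1.77 and Egr1 at −0.25, none of them called. Epha2 was at 18.1 and 40.9 CPM in leukemic_28 and leukemic_39 and at 0.0621 CPM in leukemic_26.

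The genes whose log2 CPM ran most like that of a member were named from the 10 libraries of model 1 by Pearson's r, given as a description, since the 10 points share their groups and 1 run of processing. For Nras they were Psmb4 (r = 0.991), Dclre1b (0.979) and Pwwp3b (0.976). Psmb4 and Dclre1b lie within the span around Nras, and Dclre1b was also among the 100 most similar genes over the 7 libraries of model 2 (r = 0.924). For Hras they were Slc1a3 (0.962), Ruvbl2 (0.960) and Hes1 (0.956), and for Nf1 Pank2 (0.952), Samm50 (0.923) and Serpinb9 (0.918). Reep3 (0.946), Pygo2 (0.945) and Oxnad1 (0.944) ran most like Ptpn11, and Fam199x (0.962), Upf2 (0.956) and Fam168a (0.935) most like Braf. For Rasa1 they were Ggps1 (0.981), Lyrm4 (0.969) and Ppwd1 (0.938), for Cbl Nckap5 (0.925), Ube2v2 (0.908) and Sik3 (0.888), and for Dusp6 Pdlim7 (0.940), Ropn1l (0.923) and L3hypdh (0.920). Of these 21 genes, only Sik3 (r = 0.978 over model 2) was among the 100 most similar to its member in model 2 as well. Between 0 (Ptpn11) and 12 (Braf) of the 100 most similar genes were shared by both models.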

How the data were processed

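RNA-seq was made by the authors with a stranded poly-A kit. They deposited raw read counts per gene, in 1 table per model and a second table of model 1 with 7 mice. The counts of model 2 are deposited more than once, and 1 copy was read. No column belonged to another series. The submitters' processing notes name STAR 2.5.3a, HTSeq 0.6.1p1, bcl2fastq 2.17.1.14 and the build mm10 (GRCm38), without their roles. Library totals were 29964576 to 38217654 counts in model 1, 37726753 to 40514205 in model 2 and 35497594 to 171572736 in the second table.

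From the counts, CPM were computed with TMM scaling in edgeR 4.0.16 (R 4.3.3, limma 3.58.1). Log2 fold changes came from edgeR's quasi-likelihood test (filterByExpr, glmQLFit, glmQLFTest) over all genes of a table, with all its groups in the fit and Benjamini-Hochberg adjustment. Called genes had an adjusted p under 0.05 together with a change of 1.5-fold or more. The difference between both leukaemic changes was fitted over the 22088 genes shared by both tables. Log2 CPM used a prior count of 2, and bounds against groups without counts used a floor of 3 counts per library, which covers counting error only. Exact permutation tests used scipy 1.17.1. Positions, exon lengths and sequences came from GENCODE M21 on GRCm38, which held 99.804% of the gene identifiers of model 1. The scripts were tested on simulated counts.

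The members and gene lists were chosen with earlier results of these data known. All 8 members were named, and of the pathway list Map2k1, Mapk3, Spry2, Spry4, Etv4, Etv5, Egr1, the called genes and the gene most distant from 0 in each role group, with the 3 genes of highest Pearson correlation per member. Some items that this choice covers are not reported here. Genes named by position around Nras, and others such as Sos1 in model 2, were chosen after their values were seen. Nothing in the labels says that mice shared a litter or day. P-values measure the spread between single mice with their cultures. Alternatives were DESeq2's size factors and its Wald test (DESeq2 1.42.0), the absence of a filter, a minimum of 1 CPM in 3 libraries, a fit of only the compared groups, the adjusted p alone, the sum of preleukemic_445 and preleukemic_479, and each library left out. CPM with DESeq2's size factors and windows of 1 and 5 Mb around the members were added after seeing the data.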

Additional observations from a re-analysis of the deposited data

Results flagged for a closer look

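Of 24 groups of 4 libraries tested among the member levels, 2 held a library far from the other 3, and chance alone gives about 1 in 20. The first was Nras in preleukaemic cells of model 2, where preleukemic_633 had 214.1 CPM and the other 3 mice lay between 155 and 161 CPM. The second was Cbl in TgSpi1FA+/+ preleukaemic cells of model 1, where preleukemic_451 had 336.1 CPM and the others 184 to 196 CPM.

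For 6 genes of the pathway list, the leukaemic change of model 1 differed from that of model 2 in edgeR's test of the difference, in log2 units. Spry4 differed by 9.21, Rasgrp2 by 12.99, Dusp7 by 1.82 and Sos1 by 1.38, each with the higher change in model 1. Dusp9 had a fitted difference of 19.43, which depends on the prior count, since the TgSpi1FA−/− preleukaemic libraries and the leukaemic libraries of model 2 had no counts. Araf differed by −0.97. The models also differ in strain, in the Fanca genotype of the leukaemic cells and in library protocol, and these cannot be told apart.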

How the results depend on the processing

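No paired analysis was possible because no mouse number is shared between groups. For single members, 621 of the alternative values kept their direction and their side of the threshold, 8 gained a call, 6 lost one and 21 changed sign. Of the counts, mean levels and medians of neighbouring genes, 239 alternative values stayed close to those reported and 45 did not. The cause was not tested for any change below. The DESeq2 Wald test called 3 list genes in the comparison of genotypes, 1 in model 2, 17 for the difference between models, 1 of them a member, and 14 in the second table, 2 of them members. When the fit left out the third group of model 1, the list of the leukaemic comparison of model 1 had 11 calls in place of 17. Over all genes, that fit called 1205 of 12794 in place of 1782 of 13393. Without a filter the list had 2 calls for the difference between models (6 reported) and 8 in the second table (4 reported), and with preleukemic_445 and preleukemic_479 summed it had 2 and 0. Over all genes, 279 of 22088 and 538 of 31633 were called without a filter, and 303 of 14534 and 59 of 16982 with both summed. With both summed, the leukaemic comparison of model 1 had 13 calls of the list in place of 17, since Dusp1, Dusp4 and Spred1 lost theirs (adjusted p 0.0673, 0.0512 and 0.0544) and Mras did not pass the filter. Over all genes, 1242 of 13344 were called then. Braf turned to −0.0073 in the comparison of genotypes with both summed, and Rasa1 to −0.0087 in the second table without a filter.

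With single libraries left out, the leukaemic comparison of model 1 gave 0 to 2 calls of members and 5 to 21 of the list, the difference between models 0 to 1 and 0 to 12, and the leukaemic comparison of the second table likewise 0 to 1 and 0 to 12. Over all genes, the calls ran from 414 to 2319, from 1 to 1359 and from 5 to 864 in these comparisons in turn. In the leukaemic comparison of model 1, Cbl ran from −0.17 to 0.39 and Braf from −0.20 to 0.24. Between genotypes, Cbl ran from −0.55 to 0.052, Braf from −0.10 to 0.19 and Dusp6 from −2.25 to 1.12. In model 2, Dusp6 ran from −0.77 to 1.18, and for the difference between models Rasa1 from −0.59 to 0.031. In the second table, Hras ran from −0.078 to 0.21, Ptpn11 from −0.23 to 0.25, Cbl from −0.64 to 0.16 and Rasa1 from −0.14 to 0.13. In each of these ranges, a single library turned the sign. Levels of a few counts, such as those of Mras, Rasal1 and Dusp9 before leukaemia, are limited by depth.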
